A study of Danio rerio with 14 samples.

Results

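NF-kappaB and inflammation genes were followed in whole zebrafish larvae (Danio rerio) raised in treated wastewater. The 10 genes were a named set: the NF-kappaB subunits rela and nfkb2, the NF-kappaB inhibitors nfkbiaa and nfkbiab, the cytokine signalling inhibitor socs3a, the cytokine il1b, the chemokine ccl34a.4, the acute-phase gene saa, the macrophage enzyme gene acod1 and the granulin gene grna.1. All 10 of 10 were on the array, among 12811 named genes with a usable probe. They had 20 of the 43603 probes, and 19 of these were kept. The remaining probe, a second one for saa, was well above background on 2 arrays of each group. The set was proposed with earlier results of these same arrays in view, and which difference brought in which gene is not recorded. The 10 genes are therefore described by their values. The fit that tested the other genes of the pathway also covered these 10. Their passes are only counted beside the share of all genes, and nothing is read from those counts. The lists of those other genes were also chosen with earlier results of these arrays known, so their counts carry the same limit.

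All larvae were wild type of the AB strain, and all were kept in E3, the saline used for zebrafish embryos, with DMSO as solvent. Control larvae had 0.05% DMSO alone (4 arrays), and exposed larvae had secondary effluent from a wastewater plant in Tucson, reconstituted in the same saline, at 0.5x (5 arrays) or at 1x, its original strength (5 arrays). Exposure began 3 h after fertilisation and lasted 5 days, so larvae were 5 days old at collection. The 25 to 30 larvae of a well were pooled as 1 replicate, and 200 ng of RNA per replicate was labelled for a 1-colour Agilent array. A level below is the log2 processed signal of a probe less the 75th percentile of its array, so a level of 0 is the signal of that percentile and a difference of 1 is a factor of 2. Levels of different probes cannot be set against each other.

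NF-kappaB is a family of dimeric transcription factors held in the cytoplasm by IkappaB proteins. Signals from Toll-like, interleukin-1 or tumour necrosis factor receptors lead to phosphorylation and breakdown of IkappaB, and the released dimers switch on cytokines, chemokines and acute-phase genes together with their own inhibitors. In zebrafish larvae, reporters of this pathway respond to bacteria and to the gut microbiota, and neutrophils and macrophages are already present.

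Over all probes, 2 of the control arrays stood apart. On the first principal component of the kept probes, which held 38% of the variance, control replicates 1 and 2 lay at -120 and -80.5, while the other 12 arrays lay between -17.5 and 44.4. Both were scanned on scan day 1 with 3 arrays of 1x and 1 of 0.5x, and scan day 2 held 2 control, 2 of 1x and 4 of 0.5x. The median processed signal ran from 131 to 254 over the 14 arrays, and between 37225 and 39642 probes were well above background. Marker genes of 8 tissues were all well above background on every array wherever they were measured (10 to 29 genes a tissue). Hepatocyte markers lay lower on control replicates 1 and 2 than on any other array, with mean deviations from the mean of all 14 arrays of -1.65 and -0.96, against 0.08 and 0.49 on control replicates 3 and 4. Exocrine pancreas markers showed the same split, with -2.63 and -1.77 against 0.74 and 1.2. Leukocyte markers (29 of 38 measured) spanned -0.56 to 0.32 on the control arrays, -0.07 to 0.13 on the 0.5x arrays and -0.12 to 0.18 on the 1x arrays. In pooled whole larvae, fewer cells of a type and less RNA per cell cannot be told apart.

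**Figure D1:**
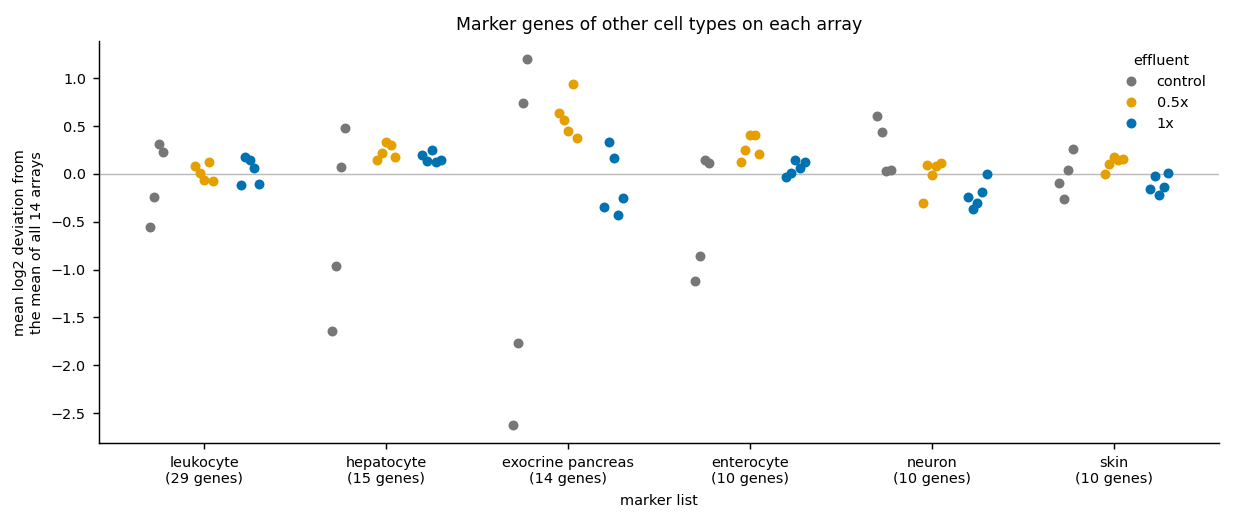
Mean log2 deviation of the leukocyte, hepatocyte, exocrine pancreas, enterocyte, neuron and skin marker lists from the mean of all 14 arrays, with 1 point per array. Points are grouped by control, 0.5x and 1x from left to right within a list (replicates 1 to 4 or 5, left to right). The skeletal muscle and retina lists are not drawn. The 2 lowest points for hepatocyte, exocrine pancreas and enterocyte markers are control replicates 1 and 2.

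rela encodes the p65 subunit, which carries the main activation domain of NF-kappaB. Its brighter probe was at -4.22, -4.26, -4.31 and -4.42 on the control arrays, at -5.54, -5.03, -5.27, -4.69 and -4.89 on the 0.5x arrays, and at -5.78, -5.93, -6.46, -5.71 and -5.91 on the 1x arrays. The 3 groups did not overlap: every 1x array lay below every 0.5x array, and every 0.5x array below every control array. The difference between 1x and control was -1.66 ± 0.18 (standard error of the fit, as for each ± after a difference below), or 3.15-fold lower, and the difference between 0.5x and control was -0.78 ± 0.18. Between 1x and 0.5x it was -0.88 ± 0.17. The order of the groups was the same within both scan days, with 1x differing from control by -1.82 on day 1 and by -1.44 on day 2.

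The size of the rela difference depended on the background correction and on the probe. The signals were dim (15.3 to 24.0 processed units on 1x arrays against 34.5 to 50.4 on control arrays), and 1x replicate 3 was not well above background there. After a model-based background correction with an offset the difference between 1x and control was -0.79, and between 0.5x and control -0.36. The second rela probe, also dim, differed by -0.51 ± 0.22 between 1x and control and by -0.30 ± 0.22 between 0.5x and control. Its 3 groups overlapped, so the separation seen with the brighter probe was not seen with the second.

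nfkb2 encodes p100, the precursor of the p52 subunit that serves the non-canonical branch. Its 3 probes went different ways. On the brightest, levels were -1.27, -0.93, -0.86 and -1.59 in control larvae, -0.62, -1.56, -1.62, -1.56 and -1.60 at 0.5x, and -0.82, -0.47, -0.25, -0.97 and -1.14 at 1x. The difference between 1x and control was 0.43 ± 0.24 and all 3 groups overlapped. The third probe gave 0.44 ± 0.25 for the same comparison, whereas the second gave -0.64 ± 0.14, with every 1x array (-2.86 to -2.70) below every control array (-2.30 to -1.87). No direction can be given for nfkb2 as a gene. Between 0.5x and control the 3 probes gave -0.23 ± 0.24, -0.46 ± 0.14 and -0.08 ± 0.25.

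Both inhibitor genes had higher mean levels in effluent, though at 0.5x nfkbiaa overlapped control on both of its probes. nfkbiaa and nfkbiab encode the zebrafish IkappaB-alpha proteins, which hold NF-kappaB in the cytoplasm and are themselves NF-kappaB targets. The brighter nfkbiaa probe was at 2.11, 2.05, 2.05 and 2.25 in control larvae, at 2.33, 2.40, 2.08, 2.47 and 2.29 at 0.5x, and at 2.16, 2.92, 2.89, 2.81 and 2.72 at 1x. Of the 1x arrays 4 lay above all control and all 0.5x arrays, and replicate 1 lay among the control arrays. The difference from control was 0.58 ± 0.15 at 1x and 0.20 ± 0.15 at 0.5x. The second probe gave 1.08 ± 0.21 at 1x, where every 1x array (0.64 to 1.64) lay above every control array (-0.40 to 0.48), and 0.54 ± 0.21 at 0.5x. On that probe the 1x difference was 1.48 on scan day 1 alone and 0.63 on scan day 2 alone, and the 0.5x difference 1.2 and 0.13.

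For nfkbiab, the paralogue, the brightest probe was at 3.79, 3.70, 3.83 and 3.97 in control larvae, at 4.24, 4.34, 4.26, 4.58 and 4.35 at 0.5x, and at 3.88, 4.39, 4.2, 4.15 and 4.2 at 1x. Every 0.5x array lay above every control array, while 1x replicate 1 fell within the control range. The difference from control was 0.34 ± 0.11 at 1x and 0.53 ± 0.11 at 0.5x, and between 1x and 0.5x it was -0.19 ± 0.11. Over the 4 nfkbiab probes the 1x minus 0.5x difference ran from -0.19 to 0.05, with overlapping groups on each. All 4 nfkbiab probes were higher than control in both exposed groups, by 0.34 to 0.71 at 1x and by 0.53 to 0.66 at 0.5x. On the dimmest of the 4 the 1x difference came to 1.08 for day 1 and 0.30 for day 2.

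socs3a encodes a suppressor of cytokine signalling that binds cytokine receptors and JAK kinases and is itself a STAT3 target. Its single probe was at 1.43, 1.21, 1.81 and 2.03 in control larvae, at 2.11, 2.55, 2.1, 2.58 and 2.30 at 0.5x, and at 2.13, 3.02, 2.62, 2.90 and 2.78 at 1x. Every array of both exposed groups lay above every control array, and the exposed groups overlapped each other. The difference from control was 1.07 ± 0.20 at 1x, or 2.1-fold, and 0.71 ± 0.20 at 0.5x, or 1.63-fold. Between 1x and 0.5x it was 0.36 ± 0.19. The 2 lowest control levels were those of replicates 1 and 2, and without these arrays the differences were 0.77 at 1x and 0.41 at 0.5x.

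**Figure D2:**
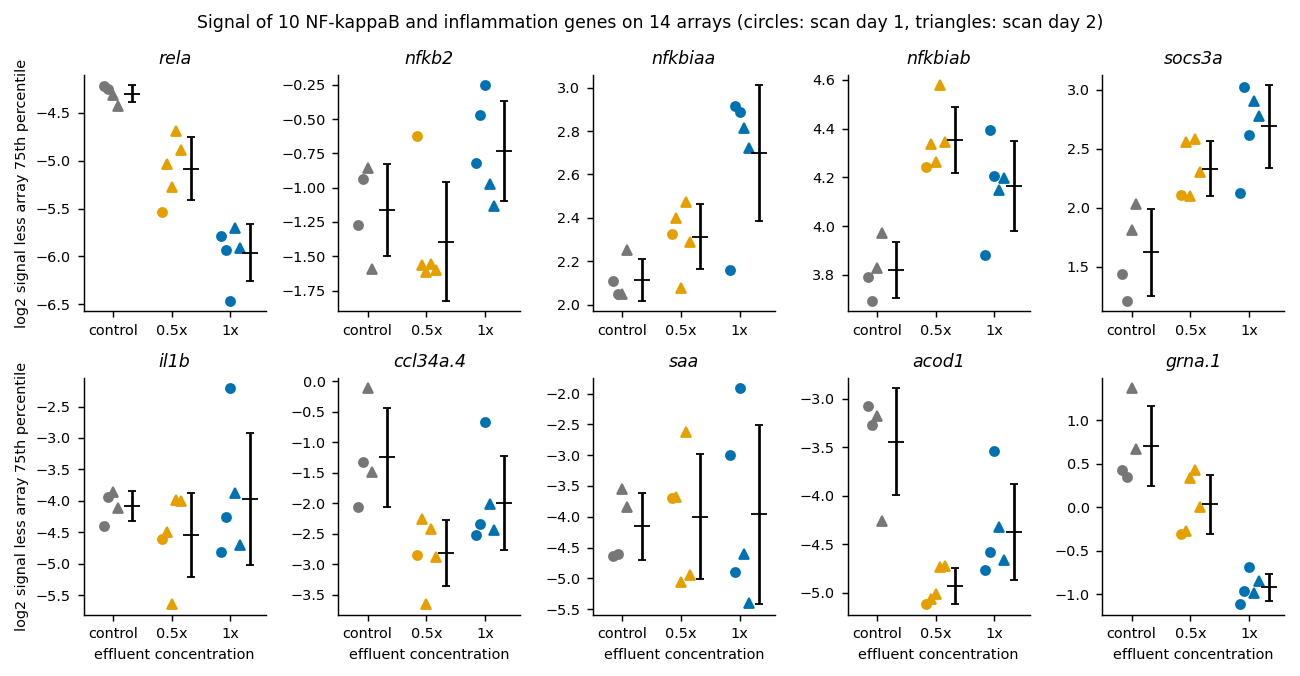
Level of the probe that represents each of the 10 genes (log2 processed signal less the 75th percentile of the array) on control, 0.5x and 1x arrays, with 1 point per array and the mean ± SD beside it; each panel has its own vertical range. The 3 groups are separate for rela, the exposed groups lie above control for socs3a, and 1x replicate 3 is the highest 1x point for il1b, ccl34a.4, saa and acod1.

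The cytokine il1b, which encodes interleukin-1 beta and is induced in activated leukocytes, did not separate the groups. Its brighter probe was at -4.40, -3.94, -3.86 and -4.11 in control larvae, at -4.60, -4.50, -5.64, -3.99 and -4.00 at 0.5x, and at -4.81, -4.26, -2.21, -3.88 and -4.71 at 1x. The exception was 1x replicate 3, which lay above all 13 other arrays, while the other 1x arrays lay between -4.81 and -3.88. The difference between 1x and control was 0.10 ± 0.45, and it was -0.34 without that replicate. Between 0.5x and control it was -0.47 ± 0.45. The second il1b probe showed the same array highest, at -2.82, with the other 1x arrays between -5.19 and -4.34.

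saa encodes serum amyloid A, an acute-phase protein made by liver and gut. On the kept probe levels were -4.63, -4.60, -3.55 and -3.84 in control larvae, -3.69, -3.67, -5.06, -2.62 and -4.94 at 0.5x, and -3.01, -4.89, -1.92, -4.60 and -5.39 at 1x. The spread within 1x (SD 1.45, n = 5) was larger than any difference between groups, which was 0.19 ± 0.65 for 1x and 0.16 ± 0.65 for 0.5x against control. The sign for 1x against control turned with the scan day, with 1.35 within day 1 and -1.30 within day 2. It was -0.32 without 1x replicate 3.

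ccl34a.4 belongs to a group of fish CC chemokines, secreted proteins that attract leukocytes. It was at -2.06, -1.32, -0.12 and -1.50 in control larvae, at -2.86, -2.26, -3.65, -2.43 and -2.88 at 0.5x, and at -2.52, -2.33, -0.66, -2.02 and -2.44 at 1x. Every 0.5x array lay below every control array, and the difference was -1.57 ± 0.42, or 2.96-fold lower. At 1x, 3 of the 5 arrays lay within the 0.5x range, and replicate 3 lay above all control arrays but 1. The 1x difference from control was -0.75 ± 0.42, ranging from -1.08 without 1x replicate 3 to -0.37 without control replicate 3, with -0.15 on day 1 and -1.42 on day 2.

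acod1, known as irg1 in zebrafish, encodes the enzyme that makes itaconate in activated macrophages. It was at -3.07, -3.27, -3.18 and -4.26 in control larvae, at -5.11, -5.06, -5.01, -4.74 and -4.73 at 0.5x, and at -4.76, -4.58, -3.54, -4.32 and -4.67 at 1x. Every 0.5x array lay below every control array, and 4 of the 5 1x arrays did so too. The difference from control was -1.49 ± 0.26 at 0.5x, or 2.80-fold lower, and -0.93 ± 0.26 at 1x, or 1.90-fold lower. With the model-based background correction these were -0.76 and -0.66, and the difference between 1x and 0.5x was 0.10 in place of 0.56.

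grna.1 belongs to the granulin family, secreted and lysosomal glycoproteins made in part by macrophages. Its brighter probe was at 0.43, 0.35, 1.37 and 0.67 in control larvae, at -0.31, -0.27, 0.33, 0.43 and -0.00 at 0.5x, and at -1.11, -0.96, -0.69, -0.99 and -0.85 at 1x. Every 1x array lay below every array of both other groups, while the 0.5x and control groups overlapped at their edges. The difference was -1.62 ± 0.21 between 1x and control, or 3.08-fold lower, -0.67 ± 0.21 between 0.5x and control, and -0.96 ± 0.19 between 1x and 0.5x. On day 1 alone the 1x difference was -1.31, and on day 2 alone -1.94. The second probe, much dimmer, gave -1.19 ± 0.24 at 1x and -0.91 ± 0.24 at 0.5x against control, and -0.69 and -0.42 with the model-based background correction.

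**Figure D3:**
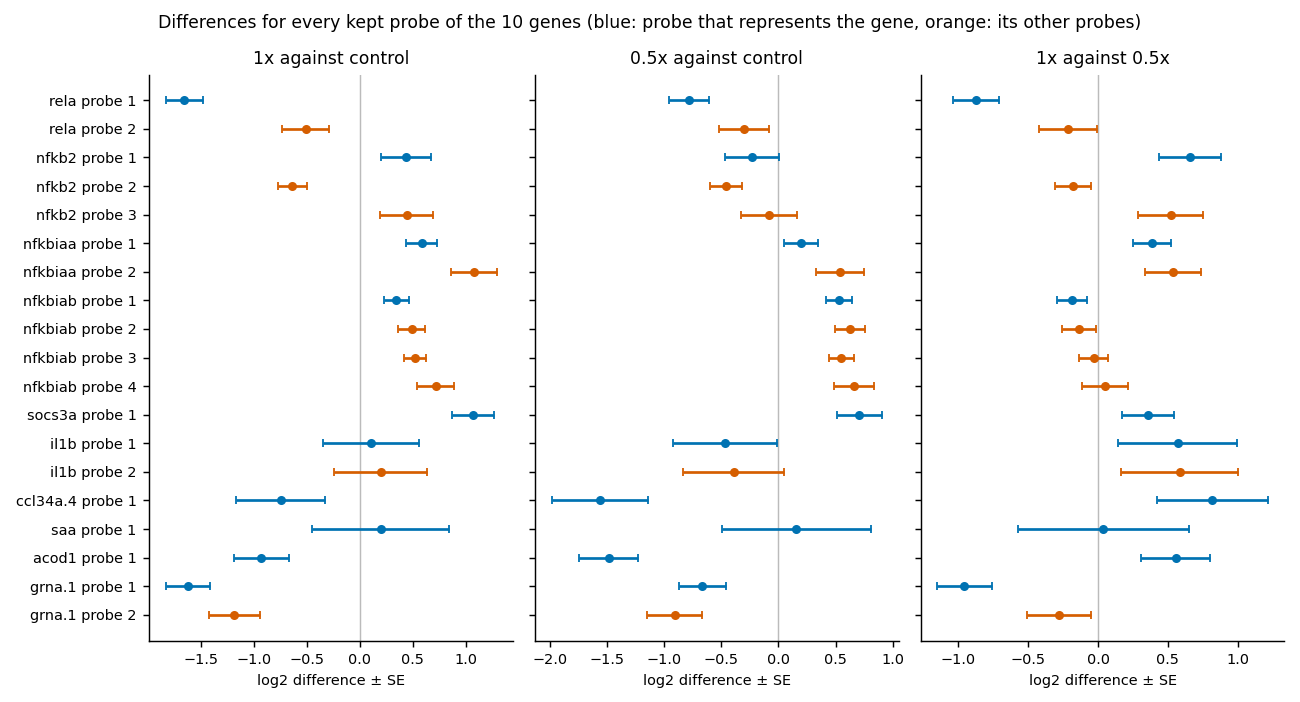
Log2 difference (points, with bars of ± 1 standard error of the fit) for each of the 19 kept probes of the 10 genes in the 3 comparisons, blue for the probe that represents the gene and orange for its other probes. The probes of nfkbiaa, nfkbiab and grna.1 fall on 1 side of zero against control, and those of nfkb2 fall on both sides at 1x.

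The 10 genes were counted against all genes measured, with 1 probe a gene and the threshold of 0.05 on limma's adjusted p. Between 1x and control, 6 of 10 passed, 3 higher (nfkbiaa, nfkbiab, socs3a) and 3 lower (rela, acod1, grna.1), where 26.6% of all genes passed (10.3% higher, 16.2% lower). The groups did not overlap for 3 of them (socs3a above, rela and grna.1 below), where this held for 20.3% of all genes. Between 0.5x and control, 5 of 10 passed (nfkbiab and socs3a higher, with rela, acod1 and ccl34a.4 lower), and the groups did not overlap for the same 5, where 8.68% of all genes passed (4.38% higher, 4.3% lower) and 10.9% did not overlap. Between 1x and 0.5x, 2 of 10 passed, rela and grna.1, both lower and both without overlap, where 4.32% passed (1.67% higher, 2.65% lower) and 10.2% did not overlap. The median difference of the 10 genes was 0.15, -0.35 and 0.37 in these 3 comparisons, against -0.05, -0.04 and -0.02 for all genes. Since values of these arrays may have brought the genes into the set, nothing is read from these counts. Both comparisons with control share the 4 control arrays.

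1x replicate 3 held high levels of several inflammation genes at once. Set against the mean of the other 4 arrays of 1x, saa was higher there by 2.55, il1b by 2.20, ccl34a.4 by 1.67 and acod1 by 1.05. Of the rest of the set, rela (-0.63) and socs3a (-0.09) were lower there, and the others were higher by 0.05 to 0.60. The cytokine gene il6, outside the set, was also lower (-0.27). On each other array at most 1 of the 10 genes exceeded the mean of its group's remaining arrays by more than 1. Pathway genes outside the set that stood high on the array, picked after their values were seen, were the cytokine tnfa (2.28), the intelectin itln3 (1.89), the chemokines ccl20a.3 (1.64), cxcl18b (1.57) and ccl19a.1 (1.43), the granulocyte factor csf3b (1.29) and the cytokine signalling inhibitor socs2 (1.04). They made up 7 of 160 pathway genes, while 0.375% of all genes exceeded 1 on that array. On control replicates 3 and 4, where 2.20% and 3.87% of all genes exceeded 1, 11 and 14 pathway genes did. The leukocyte markers averaged 0.14 on 1x replicate 3, inside the range of the other 1x arrays.

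**Figure D4:**
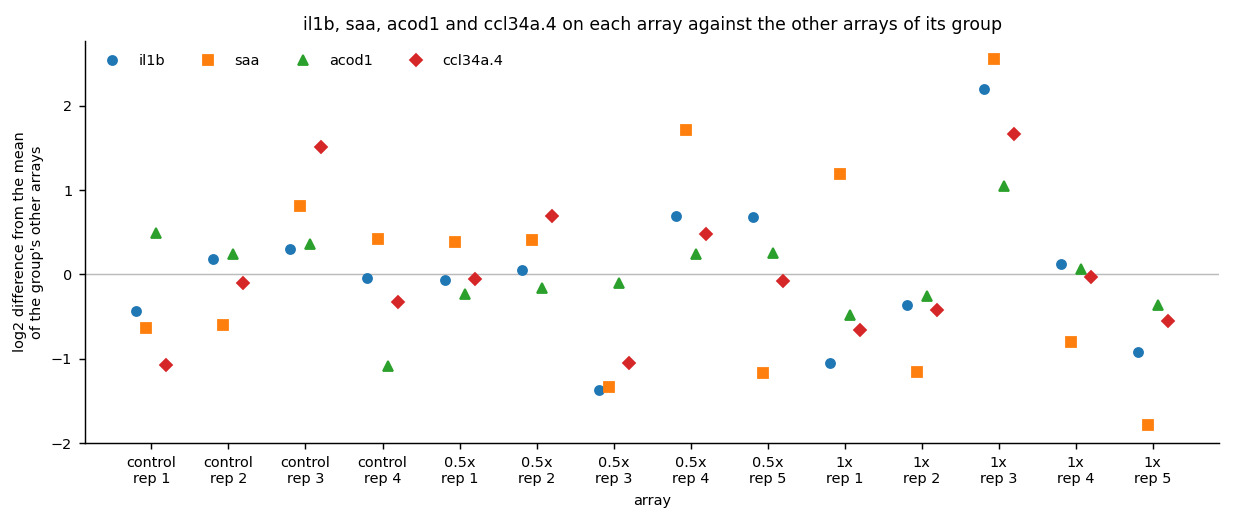
Log2 difference of il1b, saa, acod1 and ccl34a.4 on each of the 14 arrays from the mean of the other arrays of its group. On 1x replicate 3 all 4 genes lie above 1, at 1.05 to 2.55.

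Pairs of these genes followed each other over the 14 arrays to different degrees, described here without a test because the arrays fall into exposure groups and share slides. Pearson's r was 0.87 for nfkbiaa with socs3a (Spearman's rho 0.93), 0.86 for rela with grna.1, and 0.79 for acod1 with ccl34a.4 (rho 0.78). It was -0.75 for rela with nfkbiaa. Among 11907 genes ranked by Pearson's r over the 14 arrays, the 3 most like rela were oxr1a, a gene of oxidation resistance (r 0.95, rho 0.98), the thyroid hormone receptor gene thraa (0.95, 0.94) and the netrin receptor gene unc5a (0.95, 0.96). Most like grna.1 were the inflammation and lipid regulator gene ilrun (0.93, 0.90), the vitamin B12 carrier gene tcnbb (0.91, 0.94) and the metallothionein gene mt2 (0.91, 0.92). Most like socs3a were the prostaglandin reductase gene ptgr1.1 (0.93, 0.89), the transcription factor gene jdp2b (0.92, 0.88) and dnph1 (0.91, 0.87). For il1b they were the chemokine gene cxcl18b (0.82, 0.52), bicc2 (0.82, 0.64) and the cholesterol hydroxylase gene ch25h (0.74, 0.65). Here rho was below r for all 3, most for cxcl18b and least for ch25h, and 1x replicate 3 was the highest il1b array.

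The other genes of the pathway were then tested, on lists chosen with earlier results of these data known. Of 265 genes on 7 lists, 160 were measured, and none of the 10 genes above is among them. Between 1x and control 30 of 160 (18.8%) passed limma's test over all probes, of which 16 rose and 14 fell, where 26.6% of all genes passed. Between 0.5x and control 20 (12.5%) passed, 11 up and 9 down, where 8.68% of all genes passed. Between 1x and 0.5x 12 (7.5%) passed, 7 up and 5 down, where 4.32% passed. The median difference of the 160 genes was 0.10, 0.03 and 0.07. Of the 29 leukocyte markers measured, 4 rose and 2 fell at 1x, with a median difference of 0.09 (0.28 on scan day 1 and -0.25 on scan day 2), and their part in the pathway counts was not tested. The split for 1x against control depended on the scaling: 18 rose and 29 fell after the model-based background correction, and 25 rose and 9 fell after quantile normalization. At 0.5x, 9 rose and 2 fell with the model-based correction, and 12 rose and 6 fell with quantile normalization.

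These counts rested in part on the 2 control arrays that stood apart. Without both, 19 pathway genes passed for 1x (6 up, 13 down) and 4 for 0.5x (3 up, 1 down). Without control replicate 1 alone 15 and 10 passed, without control replicate 2 alone 19 and 8, and without control replicate 4, 41 passed for 0.5x. Leaving out 0.5x replicate 3 or 4 left 13 and 12 at 0.5x. For 1x against 0.5x, 5 to 7 passed when 1x replicate 2, 3 or 4 or 0.5x replicate 2, 4 or 5 was left out. Within scan day 1, 60 and 38 passed against control, and within scan day 2, 8 and 7.

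Of the NF-kappaB and IkappaB family, 3 further genes were measured and 1 passed. rel, which encodes the c-Rel subunit, was at 1.58 ± 0.21 at 1x and 1.02 ± 0.28 in control larvae (SD, n = 5 and 4). It rose by 0.56 ± 0.14 at 1x (limma, adjusted p = 0.0119) and by 0.66 ± 0.14 at 0.5x (adjusted p = 0.0127). Within scan day 2, and without both control arrays of day 1, its adjusted p exceeded 0.05 for both. The inhibitor genes nfkbib (-0.11 ± 0.12 at 1x) and nfkbie (0.09 ± 0.18) did not pass.

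Of 19 upstream signalling genes measured, 1 rose and 4 fell at 1x, and 1 rose and 3 fell at 0.5x. ripk2, the kinase below the NOD receptors, rose by 0.82 ± 0.16 at 1x (limma, adjusted p = 0.00418), with every 1x array above every control array; with the model-based background correction the difference was 0.45. tbk1, an IkappaB-kinase-related kinase of interferon induction, fell at 1x (-0.84 ± 0.20, adjusted p = 0.00967), with 1 of its 3 probes going the other way. The tbk1 call was lost within scan day 2 and without both control arrays of scan day 1. On day 1 tbk1 differed from control by -1.22, against -0.46 on day 2. Its relative ikbke fell at 1x (-0.54 ± 0.19, adjusted p = 0.0457) and at 0.5x (-0.84 ± 0.19, adjusted p = 0.0186). The ikbke call at 1x was lost in 10 of 14 fits that left out 1 array, with quantile normalization and without the filter on dim probes, and that at 0.5x with the background correction (-0.57). traf3, an adaptor that restrains non-canonical signalling, fell at 1x (-0.45 ± 0.14, adjusted p = 0.0271) and at 0.5x (-0.66 ± 0.14, adjusted p = 0.0124). The adaptor gene traf1 fell at 0.5x (-0.54 ± 0.14, limma, adjusted p = 0.0312) and at 1x (-0.45 ± 0.14, adjusted p = 0.0292). At 1x the traf1 groups overlapped control, and 1 of its 2 probes went the other way. With the background correction the 0.5x differences of traf3 and traf1 were -0.34 and -0.29 and both calls were lost. The traf3 call at 1x and the traf1 call at 0.5x were each also lost in 5 fits that left out 1 array. The kinase subunit genes ikbkb (-0.44 ± 0.17 at 1x) and chuk (0.11 ± 0.17) and the adaptor gene myd88 (0.38 ± 0.18) did not pass. xiap, an inhibitor of apoptosis, rose by 0.63 ± 0.15 at 0.5x (adjusted p = 0.0200) and was lower at 1x than at 0.5x (-0.53 ± 0.14, adjusted p = 0.0460), where 1 of its 4 probes went the other way and the call was lost in most alternatives. The xiap call at 0.5x was lost in 3 fits that left out 1 array and without both control arrays of scan day 1. It was also lost within scan day 2, with slide as a block and with the authors' deposited matrix.

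Of 20 receptor genes measured, 1 rose and 3 fell at 1x, and 3 rose and 1 fell at 0.5x. cd40, a tumour necrosis factor receptor family member on antigen-presenting cells, was at -4.58 ± 0.13 in control larvae, -5.58 ± 0.42 at 0.5x and -5.35 ± 0.26 at 1x (SD, n = 4, 5 and 5). It fell at 1x (-0.77 ± 0.19, limma, adjusted p = 0.0117) and at 0.5x (-1.0 ± 0.19, adjusted p = 0.00793), and in both comparisons the groups did not overlap. With the model-based background correction the differences were -0.56 and -0.41, and the 0.5x call was lost. Both cd40 calls were lost within scan day 2 and without both control arrays of scan day 1. The cd40 difference at 1x was -0.75 on day 1 and -0.82 on day 2. At 0.5x it was -0.90 on day 1, which held 1 array of 0.5x. The chemokine receptor gene ccr9a rose by 1.25 ± 0.30 and 1.2 ± 0.30 (adjusted p = 0.00979 and 0.0262). With the same correction these were 0.37 and 0.45, and the 0.5x call was lost. The ccr9a differences were 1.80 and 2.21 within scan day 1, and 0.72 and 0.49 within scan day 2. Both calls were lost within scan day 2 and without both control arrays of scan day 1. The 0.5x call was also lost in 5 fits that left out 1 array. The paired Toll-like receptor genes tlr4ba and tlr4bb rose at 0.5x, by 0.63 ± 0.14 and 0.79 ± 0.19 (adjusted p = 0.0141 and 0.0219), and were lower at 1x than at 0.5x (-0.60 ± 0.13 and -0.70 ± 0.18, adjusted p = 0.0189 and 0.0377). At 1x they differed from control by 0.04 ± 0.14 and 0.09 ± 0.19. With the background correction the 0.5x differences were 0.19 for tlr4ba, its call lost, and 0.52 for tlr4bb. The calls between 1x and 0.5x, and that of tlr4ba at 0.5x, were lost with the mean of all kept probes. Those between 1x and 0.5x were also lost in 3 fits for tlr4ba and 7 for tlr4bb that left out 1 array. tlr4ba and tlr4bb are close paralogues, and whether the probe of either also binds transcripts of the other was not tested. il13ra1, an interleukin-13 receptor gene, fell at 1x (-0.45 ± 0.15, adjusted p = 0.0358), a call lost in 6 fits that left out 1 array. So did il1rapl1a, a member of the interleukin-1 receptor family known from neurons (-0.58 ± 0.14, adjusted p = 0.0113), with 1 of its 3 probes going the other way. Of 10 neuron markers 6 fell at 1x (median difference -0.44), and their part in the il1rapl1a value was not tested.

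Among 14 further feedback inhibitors 2 rose at each concentration and none fell, with 1 lower in each at p under 0.05 before adjustment. dusp1, a phosphatase that turns off MAP kinases, was at 1.71 ± 0.28 in control larvae, 2.43 ± 0.26 at 0.5x and 2.52 ± 0.25 at 1x (SD, n = 4, 5 and 5). It rose by 0.81 ± 0.17 at 1x and by 0.72 ± 0.17 at 0.5x (limma, adjusted p = 0.00573 and 0.0226). socs1a, a relative of socs3a that blocks JAK kinases, rose by 0.77 ± 0.24 and 1.26 ± 0.24 (adjusted p = 0.0274 and 0.00715). Without both control arrays of scan day 1 neither gene passed at either concentration. socs3b, the paralogue of socs3a, differed by 0.13 ± 0.16 at 1x and 0.05 ± 0.16 at 0.5x.

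**Figure D5:**
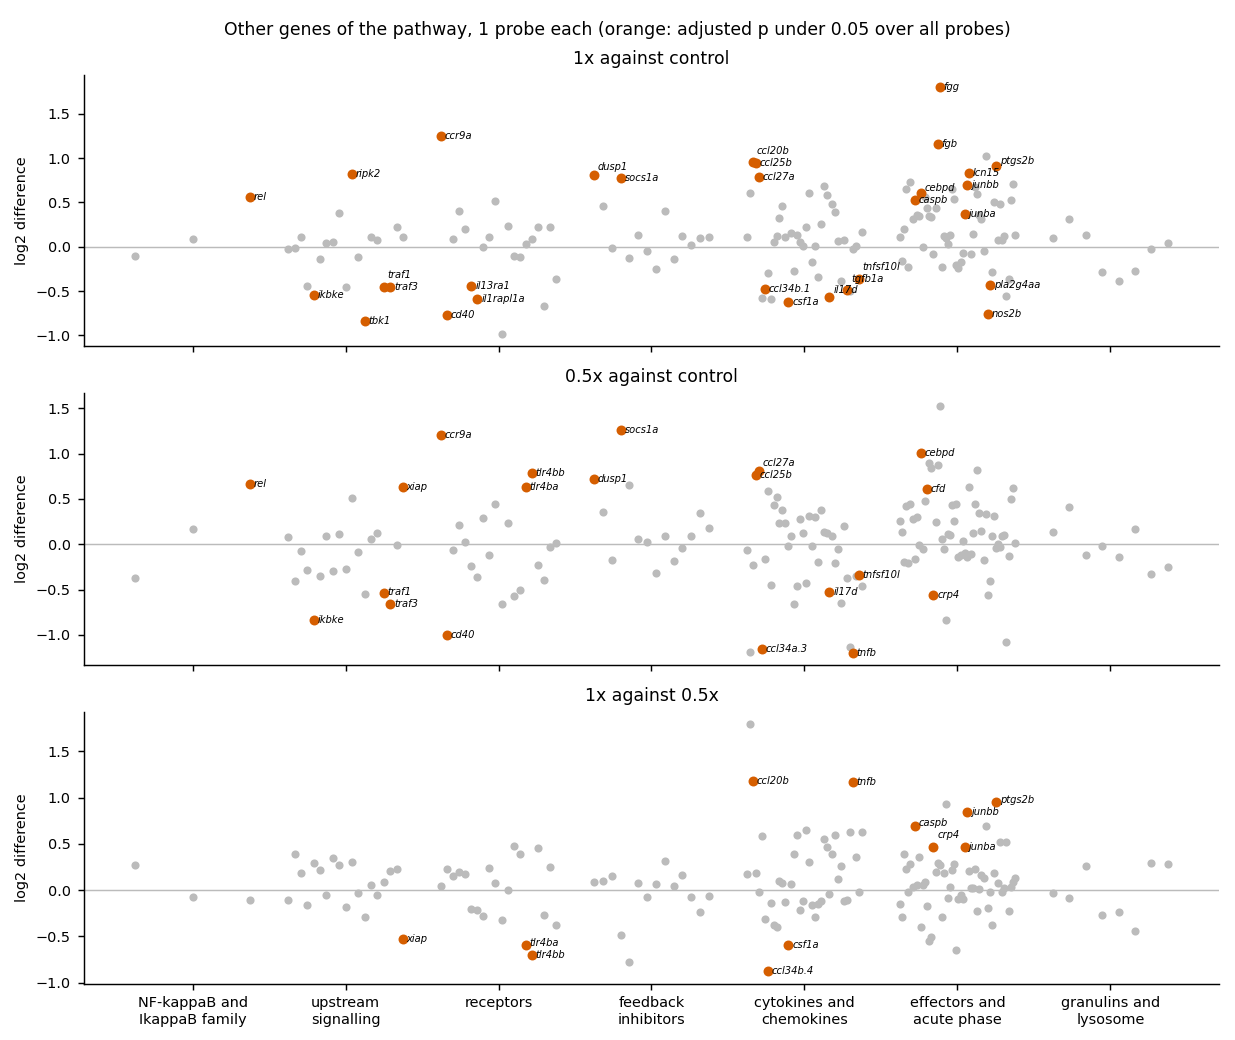
Log2 difference of each of the 160 measured pathway genes in the comparisons of 1x with control, 0.5x with control and 1x with 0.5x (top to bottom), arranged by list and in alphabetical order within it; orange named points have an adjusted p under 0.05 over all probes (30, 20 and 12 genes). Points above and below zero occur in most lists, and no granulin or lysosomal gene is orange.

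Of 40 cytokine and chemokine genes measured, 3 rose and 5 fell at 1x, and 2 rose and 4 fell at 0.5x. The genes that rose were chemokine genes. ccl25b, which guides lymphocytes to gut and thymus, rose by 0.95 ± 0.18 at 1x and 0.77 ± 0.18 at 0.5x (limma, adjusted p = 0.00399 and 0.0234), and ccl27a rose by 0.79 ± 0.15 and 0.81 ± 0.15 (adjusted p = 0.00409 and 0.00789). The ccl25b difference at 1x was 1.43 on scan day 1 and 0.41 on scan day 2, and that at 0.5x was 1.38 and 0.35. Enterocyte markers, of which 3 of 10 rose at 1x, had median differences of 1.04 and -0.01 at 1x on those days, and their part was not tested. Both ccl25b calls were lost within scan day 2. The ccl25b call at 0.5x was also lost in 3 fits that left out 1 array and without both control arrays of scan day 1. Slide as a block and the authors' deposited matrix lost it too. ccl20b rose at 1x, by 0.95 ± 0.24 (limma, adjusted p = 0.0134), and was higher at 1x than at 0.5x by 1.18 ± 0.23 (adjusted p = 0.0114). With the background correction these were 0.47 and 0.67. The ccl20b call at 1x was lost within scan day 2 and without both control arrays of scan day 1. That between 1x and 0.5x was lost within scan day 2, with slide as a block and with the authors' deposited matrix. Within scan day 1, which held 1 array of 0.5x, ccl20b was higher at 1x than at 0.5x by 1.15. csf1a, a macrophage growth factor gene, fell at 1x (-0.62 ± 0.14, adjusted p = 0.00853), a call kept in every alternative tried. The tumour necrosis factor gene tnfb was at -1.72 ± 0.27 in control larvae, -2.92 ± 0.46 at 0.5x and -1.75 ± 0.50 at 1x (SD, n = 4, 5 and 5). It fell at 0.5x (-1.2 ± 0.26, adjusted p = 0.0160) and was higher at 1x than at 0.5x by 1.17 ± 0.25 (adjusted p = 0.0180). The tnfb call at 0.5x was lost without control replicate 2, without both control arrays of scan day 1, and with the mean of all kept probes. That between 1x and 0.5x was lost within scan day 2, with the authors' deposited matrix and without 0.5x replicate 5. Within scan day 1, which held 1 array of 0.5x, tnfb differed by -0.57 between 0.5x and control and by 0.69 between 1x and 0.5x. Within scan day 2 these differences were -1.40 and 1.19.

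tnfa and il6, the cytokines most often read beside il1b, did not pass, with -0.50 ± 0.41 and -0.39 ± 0.23 at 1x and -1.13 ± 0.41 and -0.65 ± 0.23 at 0.5x. Without 1x replicate 3 the remaining 1x arrays averaged -5.41 for tnfa, against -4.45 in control larvae. Of the ccl34 family, to which ccl34a.4 belongs, ccl34a.3 had a difference of -1.16 ± 0.32 at 0.5x (limma, adjusted p = 0.0403), a call that was lost in most alternatives. Its probe was well above background on 1 of 5 arrays of 0.5x and 3 of 4 control arrays, and with the background correction the difference was -0.37. ccl34b.4 was lower at 1x than at 0.5x (-0.88 ± 0.18, adjusted p = 0.0153) and did not pass against control. Its relative ccl34b.1 fell at 1x against control (-0.48 ± 0.14, limma, adjusted p = 0.0255), with overlapping groups, and did not pass in the other comparisons.

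Of 56 effector and acute-phase genes measured, 8 rose and 2 fell at 1x, and 2 rose and 1 fell at 0.5x. The largest rises at 1x were those of the fibrinogen chain genes fgg, by 1.80 ± 0.50 (limma, adjusted p = 0.0181), and fgb, by 1.16 ± 0.35 (adjusted p = 0.0262), where 1 of 3 fgb probes went the other way. Both are also on the hepatocyte marker list, and the control spread was wide, with fgg at 3.22 ± 0.11 at 1x and 1.42 ± 1.61 in control larvae (SD, n = 5 and 4). Within scan day 1, which held both low control arrays, fgg differed by 3.15, and within scan day 2 by 0.43. The hepatocyte markers as a whole had a median difference of 1.54 within day 1 and -0.05 within day 2, and their part in the fibrinogen values was not tested. lcn15, a lipocalin gene, rose by 0.83 ± 0.27 (adjusted p = 0.0316), with 1.57 within day 1 and 0.06 within day 2.

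ptgs2b, a cyclooxygenase gene of prostaglandin synthesis, did not follow that split between 1x and control. It rose by 0.91 ± 0.23 at 1x (limma, adjusted p = 0.0118), with 0.73 on day 1 and 1.15 on day 2, though it passed on neither day alone. It was higher at 1x than at 0.5x by 0.95 ± 0.21 (limma, adjusted p = 0.0229). This difference was 0.26 on day 1, which held 1 array of 0.5x, and 1.27 on day 2. The ptgs2b call between 1x and 0.5x was lost in 5 fits that left out 1 array. It was also lost with slide as a block and with the authors' deposited matrix. The AP-1 gene junbb rose by 0.70 ± 0.13 at 1x (limma, adjusted p = 0.00346). At 1x junbb was higher than at 0.5x by 0.85 ± 0.13 (adjusted p = 0.00199), and the inflammatory caspase gene caspb by 0.70 ± 0.15 (adjusted p = 0.0181). Both calls between 1x and 0.5x were lost with the authors' deposited matrix, and that of caspb also without 0.5x replicate 2. cebpd, a transcription factor of the acute-phase response, rose by 1.00 ± 0.17 at 0.5x (adjusted p = 0.00352) and by 0.60 ± 0.17 at 1x (adjusted p = 0.0180). Its 0.5x call was lost within scan day 2 and without both control arrays of scan day 1. cfd, complement factor D, rose by 0.61 ± 0.18 at 0.5x (limma, adjusted p = 0.0490), a call lost in most alternatives. crp4, a C-reactive protein gene, fell at 0.5x (-0.56 ± 0.12, adjusted p = 0.0144). The crp4 call was lost within scan day 2 and without both control arrays of scan day 1. It was also lost with the authors' deposited matrix and with the mean of all kept probes. Among the genes that fell at 1x was the nitric oxide synthase gene nos2b (-0.75 ± 0.22, limma, adjusted p = 0.0213), with overlapping groups. With the background correction its difference was -0.53. The cyclooxygenase paralogue ptgs2a (0.50 ± 0.20 at 1x) and the matrix protease gene mmp9 (-0.04 ± 0.27) did not pass.

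Of 8 other granulin, sortilin and lysosomal genes none passed limma's test in any comparison, while without adjustment 1 rose and 1 fell with p under 0.05 in each. The other granulin genes were at 0.14 ± 0.26 for grna, -0.29 ± 0.23 for grna.2 and -0.38 ± 0.16 for grnb between 1x and control. Whether they differ from grna.1 was not tested.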

How the data were processed

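RNA of 14 pools of whole larvae was measured on 1-colour arrays. The authors deposited the scanner output of Agilent Feature Extraction 10.7, per the submitters' processing notes, whose processed signal is a linear intensity already corrected for background, per the file headers. A processed matrix of log2 values (36346 probes) was deposited too, and no source used here says how it was made. It matched the scanner values centred within slides (r of 1.00 on 12 arrays, 0.872 and 0.901 on 2; column medians -0.0662 to 0.110) and served as an alternative only.

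Spots marked as outliers (73) were left out, none was saturated, and spots of a probe were averaged (43603 probes). The log2 processed signal less the array's 75th percentile was analysed. Probes had to exceed background clearly, by the software's own flag, on 4 or more arrays of some group, which 38803 did. Accessions of 25978 probes matched the RefSeq gene table of the GRCz12tu assembly, used for names only; the array's own annotation is of an older assembly, so no coordinates are given. Where a gene had several, its brightest kept probe on average represented it. Groups were compared with limma 3.58.1 in R 4.3.3 (lmFit and eBayes, all 14 arrays, no block), with Benjamini-Hochberg adjustment over the kept probes and a threshold of 0.05. The fit was tested on simulated data. The number of arrays limits the precision. No source used here says whether wells shared a clutch, so p-values measure only the spread between the arrays of these groups. With no block fitted, that spread mixes differences between wells, slides and scan days. Over all probes 11147 passed for 1x and 3590 for 0.5x against control, and 1581 for 1x against 0.5x. The median of all probes was -0.09 at 1x and -0.11 at 0.5x against control, and -0.20 at 1x with the normexp correction. The share of calls that were higher was 34.4% at 1x (19.8% with normexp, 45.2% with quantile normalization), 38.2% at 0.5x (44.9% and 54.8%) and 42.6% for 1x against 0.5x (30.5% and 41.7%).

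The members and lists were chosen with earlier results of these data known. Named were all 10 members and, per list and comparison, up to 4 genes past the threshold with the largest absolute difference; for rela, grna.1, socs3a and il1b, the 3 named genes with the highest Pearson's r. Genes named as not passing, and those high on 1x replicate 3, were picked after their values were seen. So were nos2b, ccl34b.1 and the differences of junbb, cebpd and traf1 between 1x and control. These are not among the 48 calls followed through the alternatives. The model-based background correction was normexp with an offset of 50 on the median signal and median background, in place of the mean signal first planned. Other alternatives were quantile normalization, other filters, slide, scan day or replicate number as a block, fits within each scan day, the mean of a gene's probes, each array left out, and, added after seeing the data, both control arrays of scan day 1 left out.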

Additional observations from a re-analysis of the deposited data

Results flagged for a closer look

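In 10 of 150 groups examined, 1 array lay far from the rest by Dixon's criterion, which chance meets in about 1 in 20 groups. Among the 10 genes, nfkb2 was high on 0.5x replicate 1 for 2 of its probes, at -0.62 and -3.38, where the other 0.5x arrays were no higher than -1.56 and -4.15. nfkbiaa was low on 1x replicate 1, at 2.16, against at least 2.72 on the other 1x arrays. acod1 was low on control replicate 4, at -4.26, against at least -3.27 on the other control arrays. ccl34a.4 was high on 1x replicate 3, at -0.66, against at most -2.02 on the other 1x arrays.

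Among pathway genes, ripk2 was low on control replicate 4, at -3.69. ikbke was high on 1x replicate 5, at -2.92, and xiap low on the same array, at 0.86. ptgs2b was low on 1x replicate 1, at 0.26, and caspb high on 1x replicate 4, at 4.72. The causes were not tested.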

How the results depend on the processing

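None of the 48 calls of named pathway genes turned its direction in an alternative; 981 alternative fits kept a call and 265 lost it: 37 of 48 calls within scan day 2, 22 within scan day 1, 27 without both control arrays of scan day 1, 17 of 47 with the authors' matrix and 13 with slide as a block. Over all probes, the count for 1x against control was 18065 within scan day 1, 1574 within scan day 2 and 4276 without both control arrays; for 0.5x it was 11654, 835 and 606, and 1975 with normexp; for 1x against 0.5x it was 1030 within day 2, 3237 without both control arrays and 727 with slide as a block. Limma called 0 probes for 1x against 0.5x within scan day 1 (3200 at an unadjusted p under 0.05) and 0 with the authors' matrix (4063 unadjusted), and 0 pathway genes in each (14 and 19 unadjusted). Within day 1 the lone 0.5x array is assumed to vary like the other groups. For pathway genes the count was 60, 8 and 19 for 1x against control (47 with normexp), 38, 7 and 4 for 0.5x (11 with normexp), and for 1x against 0.5x 6 within day 2 and 6 with slide as a block. Leaving out each array in turn gave 5939 to 12996 probes and 15 to 43 pathway genes for 1x, 1111 to 9607 and 8 to 41 for 0.5x, and 709 to 4626 and 5 to 17 for 1x against 0.5x. The causes were not tested. Replicate numbers did not pair the arrays: 13 same-numbered pairs correlated at -0.22 to 0.49 (median 0.11; other pairs -0.04), and 5 of 14 arrays correlated best with their own number. With the replicate block the counts were 12855, 3991 and 1826 probes and 37, 21 and 11 pathway genes, and 4 of 48 calls were lost. Near background, the differences from control of acod1, 1 probe of rela and the second probe of grna.1 were smaller with the model-based background correction.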
